A study of Caenorhabditis elegans with 2 samples.

Results

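CDC-48 is the AAA ATPase of Caenorhabditis elegans that pulls ubiquitylated proteins out of membranes and complexes, and 8 genes that encode it or work with it were described here in a map of the forkhead factor PHA-4. The 8 genes are cdc-48.1, cdc-48.2, ufd-1, npl-4.1, npl-4.2, ufd-2, sel-1 and sel-11, listed by symbol among 19973 protein-coding genes of the Ensembl annotation of WBcel235, the assembly also called ce11. PHA-4 regions were assigned to a gene when the summit, the highest base of the region, lay inside the gene or within 5 kb of any of its 5' ends. This gave 12 of the 7847 peaks in the authors' optimal list, the list kept after their irreproducible discovery rate step. The genes were chosen by name with the deposited peak heights of the optimal list already known, so heights, ranks and counts of bound genes are given as descriptions without a test.

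The chromatin came from whole L3 larvae of strain OP37, a mixed-sex population pooled from males and females. The strain carries the unc-119(ed3) III allele and the wgIs37 insertion, listed with pha-4 as its target. The labelled assay is ChIP-seq against eGFP-pha-4 with an antibody listed as pha-4. There was 1 group of 2 biological replicates from that strain, and no second genotype, stage or treatment. A signal from whole animals cannot be assigned to the pharynx, the intestine or any other tissue, and a peak list reports binding and not expression. Each replicate had its own list of 30000 regions with median heights of 6.40 and 15.1, so a height was divided by that replicate's median over the optimal peaks (28.4 and 57.6) to give a relative signal. Read depth is unknown here, so no value carries a counting error on reads.

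PHA-4 is the FoxA protein that specifies the pharynx and is also present in the intestine. CDC-48 works as a ring that threads substrates through its centre. UFD-1 and NPL-4 form the cofactor that brings ubiquitylated substrates to it, and UFD-2 lengthens ubiquitin chains on those substrates. SEL-11, known in yeast and mammals as Hrd1, is a ubiquitin ligase of the endoplasmic reticulum membrane, and SEL-1 is its adaptor. Together they carry out ERAD, the removal of misfolded proteins from the endoplasmic reticulum to the proteasome.

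PHA-4 stood highest, in the whole optimal list, at the promoter of cdc-48.1. It also had promoter peaks at the paralogue cdc-48.2 and at ufd-2, and none in the optimal list at ufd-1, npl-4.1, npl-4.2, sel-1 or sel-11. A gene is called bound here if its promoter window, which extends 1000 bp before and 200 bp after any of its 5' ends, holds an optimal summit. By that definition 3 of the 8 genes (37.5%) were bound, beside 24.0% of all protein-coding genes, and nothing is read from that gap, since the genes were chosen with heights known. The same 3 were bound in a window of 500 bp upstream and 100 bp downstream (beside 19.5% of all genes), in a window reaching 2000 bp upstream (29.4%) and with whole regions in place of summits (25.2%). They were also bound with the nearest 5' end only (23.2%) and in the upper part of the list above the median height (15.1%). The same held with RefSeq 5' ends (23.5%) and from the highest regions of replicate 2 (24.0%) and of replicate 1 (24.6%). The highest regions of the pool (24.0%) are no separate check, since the optimal member peaks have the same heights and ranks there. At cdc-48.2 the peak that counted changed with the setting, as given further on. Counting any optimal summit in the gene or within 5 kb, 5 of the 8 had a peak, beside 49.1% of all genes. The genes without an optimal promoter peak were those of the UFD-1 and NPL-4 cofactor and those of the membrane ligase and its adaptor. For npl-4.1 and npl-4.2 the promoters are copies of each other, which limits what a peak list can show there.

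**Figure D1:**
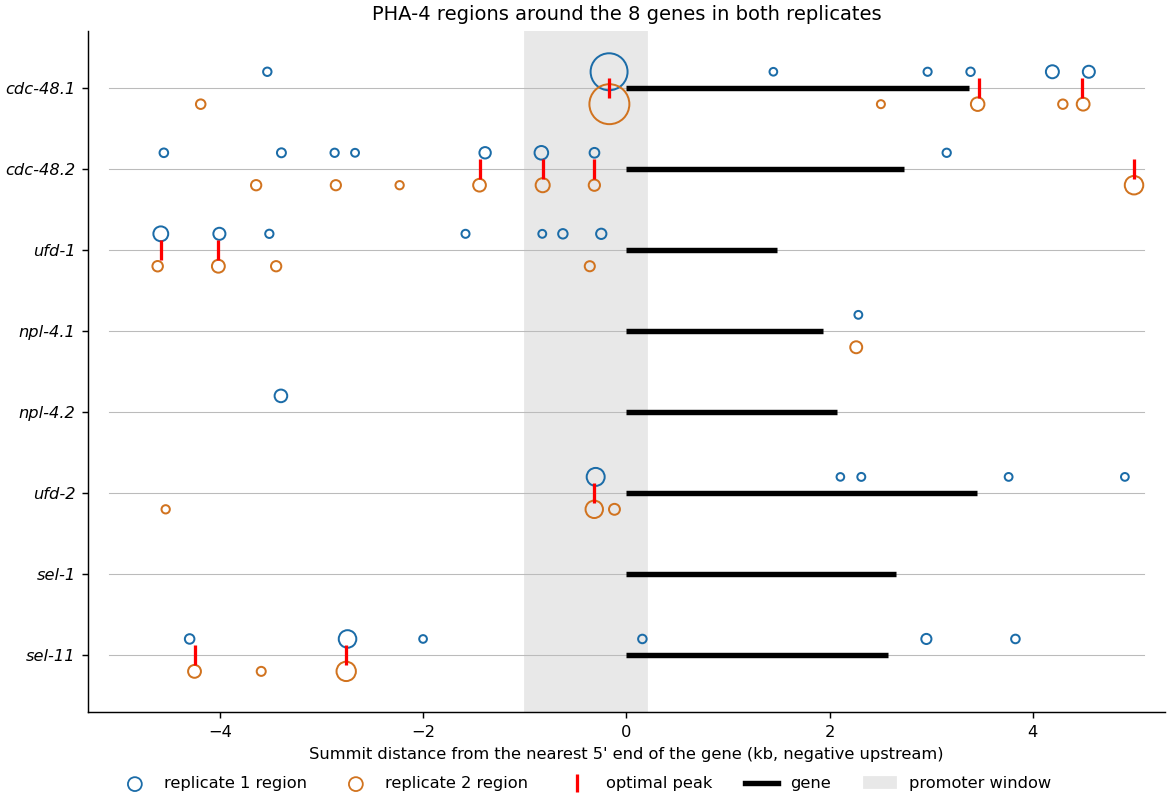
PHA-4 regions around each of the 8 genes, by distance of the summit from the nearest 5' end in kb. Circles are regions of replicate 1 (above each line) and replicate 2 (below), with area growing with relative signal; red ticks are optimal peaks, black bars the genes and the grey band the promoter window. The 2 largest circles belong to cdc-48.1, and the line of sel-1 carries no circle.

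The sequence under the peaks is shown for the 4 promoter peaks and for the member peak with a forkhead-type match within 50 bp of its summit, as 101 bp centred on the summit on build ce11, read on the strand of the gene from the RefSeq genome. The promoter peak of cdc-48.1 is centred in chrII:10563525-10563625 (minus strand). The peaks of cdc-48.2 are centred in chrII:8137620-8137720 and chrII:8138130-8138230, and that of ufd-2 in chrII:8062374-8062474 (all plus strand). The upstream peak of ufd-1 is centred in chrIV:12334859-12334959 (minus strand). Positions after the gene names are summit distances from the 5' end in bp, negative upstream. Capitals mark the word CAAACGCGCTCC or its closest form, described further on, and matches to fixed motifs: GAGAGA, whose other strand reads TCTCTC, then the word TGATAA, which reads TTATCA here, and the forkhead word TGTTTGC, which reads GCAAACA here.
cdc-48.1 −168: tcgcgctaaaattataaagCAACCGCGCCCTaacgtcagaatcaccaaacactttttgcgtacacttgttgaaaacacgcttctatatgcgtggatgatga
cdc-48.2 −826: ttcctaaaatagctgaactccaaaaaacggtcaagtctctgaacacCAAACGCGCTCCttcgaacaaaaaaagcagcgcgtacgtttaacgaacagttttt
cdc-48.2 −316: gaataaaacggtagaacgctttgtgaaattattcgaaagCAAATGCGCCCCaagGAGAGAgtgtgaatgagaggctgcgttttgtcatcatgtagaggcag
ufd-2 −317: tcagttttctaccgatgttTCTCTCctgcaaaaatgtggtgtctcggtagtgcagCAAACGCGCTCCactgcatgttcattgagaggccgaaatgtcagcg
ufd-1 −4019: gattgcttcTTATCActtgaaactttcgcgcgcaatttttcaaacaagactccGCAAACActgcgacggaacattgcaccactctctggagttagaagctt

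The ATPase gene cdc-48.1 (WBGene00007352, chromosome II, 10560036 to 10563407, minus strand) has its promoter peak at chrII:10563433-10563722, an intergenic region of 290 bp with the summit 168 bp upstream of the 5' end. Its height was 862 in the optimal list (rank 1), where pha-4 came second at 838. The height was 256 in replicate 1 (rank 6) and 609 in replicate 2 (rank 1), or 9.0 and 10.6 times the replicate's median. The mean relative signal was 9.79 ± 1.11 (SD, n = 2). Both replicates therefore put the peak among their highest, although in replicate 1 it reached 83.1% of that list's highest region. The summits of the replicates lay within 3 bp of each other. The same summit falls in the promoter window of C06A1.9, a small nucleolar RNA gene inside cdc-48.1, and in that of no other protein-coding gene; the neighbour C06A1.6 ends 704 bp upstream on the same strand.

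The height at cdc-48.1 was close to that of a small set of other promoter peaks in both replicates. By distance of log2 relative signal over the 2 replicates, among 4699 bound genes with a region in each, the nearest to cdc-48.1 was rpl-3, a ribosomal protein gene, at a distance of 0.25. It was followed by pha-4 at 0.28, Y39B6A.43 at 0.35, and Y17G9B.5 with the ribosomal protein gene rpl-20 at 0.46, which share a peak. Relative signal was 9.54 ± 0.55 at rpl-3, 9.86 ± 0.77 at pha-4 and 9.29 ± 1.08 at Y39B6A.43 (SD, n = 2 each). These means differ from that of cdc-48.1 by less than 1 SD of the replicates at cdc-48.1. The strain carries an insertion listed for pha-4, and its part in the height at pha-4 was not tested. The order among these peaks is therefore not resolved, and of the 2 replicates cdc-48.1 ranked first in replicate 2 only.

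**Figure D2:**
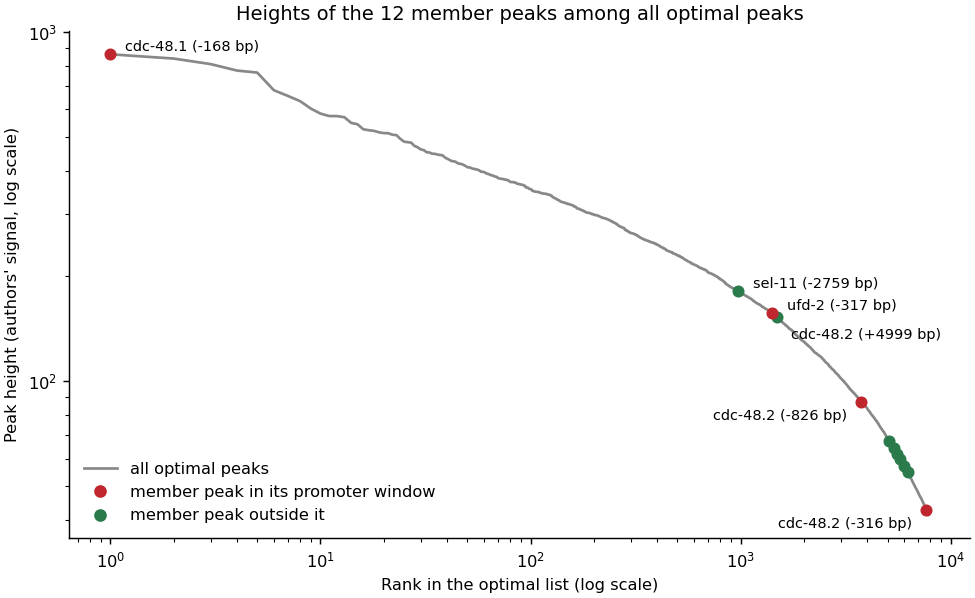
Height (the authors' signal) of all 7847 optimal peaks against rank, both axes on a log scale, with the 12 member peaks as points, red inside the promoter window of the gene and green outside. The peak of cdc-48.1 starts the curve at 862, while the −316 bp peak of cdc-48.2 lies near its end at 42.8.

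The rest of the neighbourhood of cdc-48.1 was weak. A peak with its summit at +3473 bp, just past the end of the gene, had a height of 54.9 (rank 6238), and its replicates differed: 5.0 (rank 18206) in replicate 1 and 53.8 (rank 4331) in replicate 2. The relative signals were 0.18 and 0.94, the widest split of the 12 member peaks (mean 0.56 ± 0.54 SD). A peak at +4486 bp had a height of 64.3 (rank 5339) and a relative signal of 0.74 ± 0.09. Its nearest 5' end belongs to mnk-1, a kinase gene, whose promoter window does not reach it (−3877 bp). Regions inside the body of cdc-48.1 appear only in the unthresholded lists, with heights of 2.67 and 4.08 in replicate 1, 7.30 in replicate 2 and 7.95 in the pool.

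The paralogue cdc-48.2 (WBGene00008053, chromosome II, 8138496 to 8141230, plus strand) had 4 optimal peaks in reach and 2 in its promoter window, all lower than that of cdc-48.1. The higher promoter peak, at −826 bp, had a height of 87.4 (rank 3753), close to the list's median of 84.7. Its height was 26.9 in replicate 1 (rank 4410) and 59.7 in replicate 2 (rank 3737), a relative signal of 0.99 ± 0.06 (SD, n = 2). That summit lies nearer to the divergent gene ctns-1, a homologue of the lysosomal cystine transporter, at −752 bp of its 5' end, and counts for both genes. The peak that is nearest to cdc-48.2 itself is the one at −316 bp. It had heights of 9.46 (rank 11204) and 31.9 (rank 7459), a relative signal of 0.44 ± 0.16 and a height of 42.8 in the optimal list. This is rank 7660 of 7847, just above the list's lowest height of 41.4.

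The remaining peaks of cdc-48.2 lie at the promoters of its neighbours. The one at −1447 bp had a height of 61.8 (rank 5549; relative signal 0.68 ± 0.15) and lies −131 bp from ctns-1. The one at +4999 bp had a height of 152.5 (rank 1482; relative signal 1.64 ± 0.53) and lies −17 bp from ints-11, a gene of the Integrator complex, in a window that also serves the ribosomal protein gene rpl-10. It is barely inside the 5 kb reach. In replicate 1 it stood at 36.1 (rank 2963) and in replicate 2 at 116.2 (rank 1094).

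Set side by side, the promoter peak of cdc-48.1 was 9.51 times as high as the −826 bp peak of cdc-48.2 in replicate 1. It was 10.2 times as high in replicate 2 and 9.87 times in the optimal list. That −826 bp peak lies nearer to ctns-1 and counts for both genes. The −316 bp peak, nearest to cdc-48.2 itself, was lower (9.46 and 31.9 in the replicates), so its ratio is wider. The coding parts of the pair are close: 720 residues of the proteins, of 809 and 810 residues, are identical (88.9% of the longer), as are 77.4% of coding bases. The 1000 bp upstream are not. There 60.6% of bases matched after alignment, against 60.6% and 60.2% for cdc-48.1 paired with the more distant genes cdc-48.3 and mac-1, so the upstream identity of the paralogues was no higher than for these pairs.

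The chain-elongation factor gene ufd-2 (WBGene00006734, chromosome II, 8062741 to 8066193, plus strand) had a single optimal peak, at chrII:8062347-8062519 with the summit 317 bp upstream. Its height was 156 in the optimal list (rank 1415), 53.8 in replicate 1 (rank 1472) and 101.2 in replicate 2 (rank 1481). The relative signal was 1.83 ± 0.10 (SD, n = 2), and the coefficient of variation of 5.22% was the lowest of the 12 member peaks, beside a median of 19.4% over the optimal list. No other gene has this summit in its promoter window. The peak was 1.79 times the higher promoter peak of cdc-48.2 in the optimal list (2.00 and 1.69 times in the replicates), and that of cdc-48.1 was 5.51 times higher still (4.75 and 6.01 times). A smaller region at −118 bp of ufd-2 was listed in replicate 2 (height 29.0, rank 8136) and in the pool (30.5, rank 9931) but not in replicate 1.

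**Figure D3:**
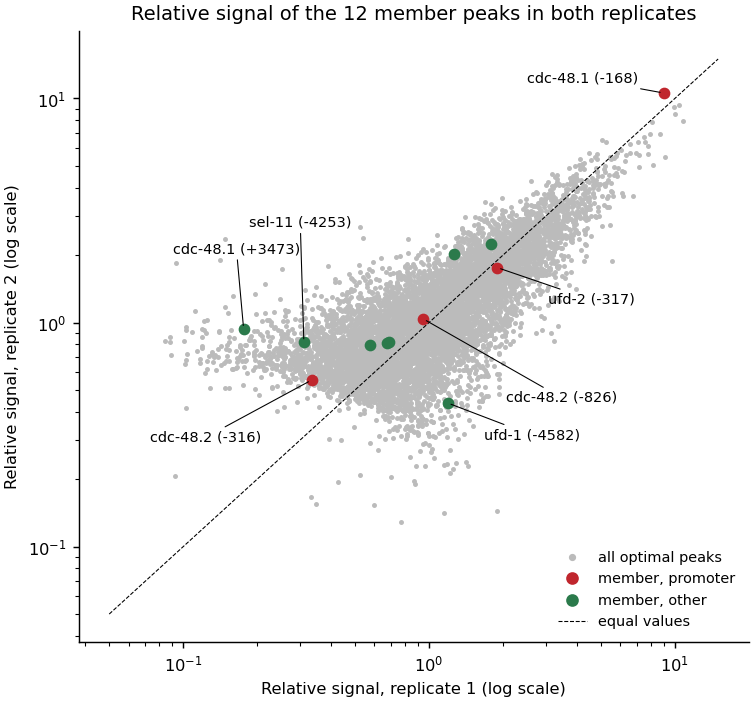
Relative signal in replicate 1 against replicate 2, both on a log scale, for all optimal peaks with a region in each (grey) and for the 12 member peaks (red inside the promoter window, green outside). The promoter peaks of cdc-48.1, ufd-2 and cdc-48.2 at −826 bp lie near the line of equal values; the peak at +3473 bp of cdc-48.1 (0.18 and 0.94) and the peak at −4582 bp of ufd-1 (1.19 and 0.44) lie far from it on opposite sides.

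The cofactor gene ufd-1 (WBGene00006733, chromosome IV, 12329408 to 12330890, minus strand) had no optimal promoter peak. It starts 85 bp after the end of F19B6.1, its upstream neighbour on the same strand. Its 2 optimal peaks in reach, at −4019 bp and −4582 bp, both lie in introns of F19B6.1 and within that gene's promoter windows. The first had a height of 67.2 (rank 5102) and a relative signal of 0.75 ± 0.09. The second had a height of 59.8 (rank 5733), with 33.8 (rank 3252) in replicate 1 and 25.2 (rank 9226) in replicate 2, a relative signal of 0.81 ± 0.53. Below the threshold, a region at −248 bp of ufd-1 was listed at 26.0 in the pool (rank 11167) and at 11.7 in replicate 1 (rank 9490). Replicate 2 had one at −361 bp with a height of 22.1 (rank 10321). The relative signals of these were 0.41 and 0.38, so both replicates held a weak region in front of ufd-1 that the optimal list left out. These summits lie in the 3' untranslated part of F19B6.1. Replicate 1 also had regions at −626 bp (height 8.47) and −829 bp (3.21) of ufd-1.

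The ligase gene sel-11 (WBGene00004768, chromosome V, 11767328 to 11769899, plus strand) likewise sits 105 bp behind a gene on the same strand, syx-5, which encodes a syntaxin of the Golgi. Its tallest peak in reach, at −2759 bp, had heights of 181 in the optimal list (rank 973), 50.9 in replicate 1 (rank 1647) and 129 in replicate 2 (rank 820), a relative signal of 2.02 ± 0.32. The summit is −184 bp from F55A11.1 and falls in the promoter windows of F55A11.1 and syx-5. A peak at −4253 bp (height 57.0, rank 6007) lies −26 bp from T04F3.4; its relative signals of 0.31 and 0.82 differed between replicates. In the promoter window of sel-11 itself there was only a region of replicate 1, at +157 bp with a height of 5.25 (rank 17516).

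The adaptor gene sel-1 (WBGene00004759, chromosome V, 12560732 to 12563383, plus strand) had no region of any list in reach, also not in the replicate lists of 30000 regions. It was the only member without one. The nearest optimal summit was 22733 bp from its 5' end, and 85.5% of protein-coding genes had one closer (median 5246 bp). The nearest replicate summits were 21348 bp away in replicate 1 and 22743 bp away in replicate 2, and 95.2% and 92.9% of genes had one closer. The gene stands in a gap without optimal summits of 61.7 kb, which spans 14 protein-coding genes, sel-1 included, and is number 249 by length of 7841 gaps (median 4831 bp). The gap was 57.6 kb in replicate 1 and 61.3 kb in replicate 2, numbers 84 and 100 of 29994.

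The cofactor genes npl-4.1 (WBGene00019120, chromosome II, 5631351 to 5633284) and npl-4.2 (WBGene00019121, chromosome II, 5622889 to 5624959), both on the plus strand, had no optimal or pooled region in reach. Their nearest optimal summits were 18274 and 23178 bp away, and they share a gap of 49.9 kb in the optimal list. That gap spans 14 protein-coding genes, both npl-4 genes included, and is number 410 by length of 7841 gaps. Replicate 1 listed a region of height 22.0 (rank 5481) at −3403 bp of npl-4.2. Its summit lies −167 bp from dhs-6, in the promoter window of that gene only. Past the end of npl-4.1, both replicates had a region, at +2284 bp with a height of 3.08 (rank 25899) in replicate 1 and at +2263 bp with a height of 38.1 (rank 6323) in replicate 2. Neither gene had a region of any list in its promoter window.

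The npl-4 genes are near copies of each other. Their 5' ends are 8462 bp apart. Of 529 residues 524 (99.1%) are identical, and all 1000 bases upstream of the 5' ends match, as part of an exact run of 1325 bases. A read from such a run cannot be placed at only 1 of the copies, and the sources used here do not say how the authors treated reads with several placements. Of the words of 36 bases in the promoter window, 3.00% occur once in the genome for npl-4.1 and the same share for npl-4.2. The share was 90.3% for cdc-48.1 and 100% for the other 5 members, and the median of all genes was 100%. Only 202 protein-coding genes had a lower share than the npl-4 genes. Farther upstream, bins of 100 bp from −2950 to −1450 bp were 100% unique at both npl-4 genes and held no listed region either.

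Among all genes, fewer promoters were bound where fewer words were unique. Of the 253 genes with at most 10% unique words, npl-4.1 and npl-4.2 among them, 0 were bound. By counting alone this allows a share of up to 1.19% with a listed peak; it limits listed peaks and not binding, and copies are not independent genes. The share was 5.08% of 354 genes between 10% and 50%, 13.5% of 1997 genes between 50% and 90%, and 26.0% of 17369 genes above that. The part of uniqueness in the empty promoters of npl-4.1 and npl-4.2 was not tested, and no binding or lack of it is read from these 2 promoters. For sel-1, every word of 36 bases within 6000 bp of its 5' end was unique, and all 12 optimal member peaks lie in wholly unique sequence. Why sel-1 has no region in reach was not tested either.

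**Figure D4:**
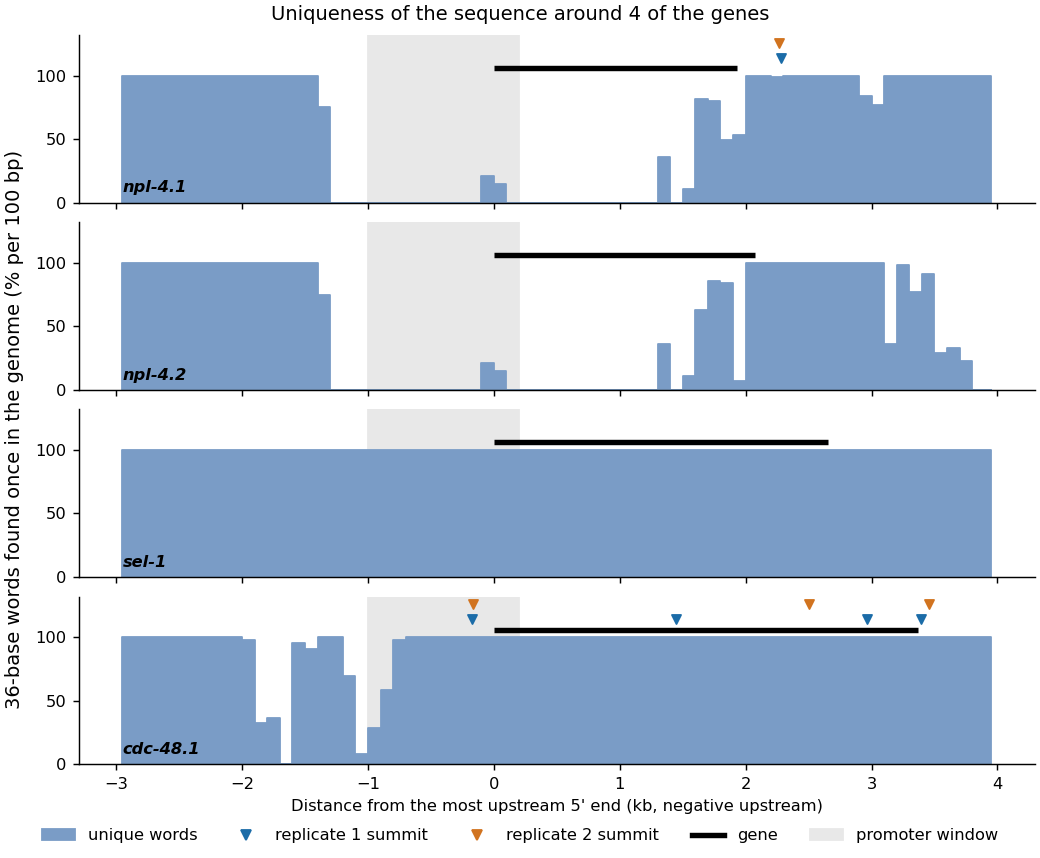
Share of 36-base words that occur once in the genome, in bins of 100 bp, around npl-4.1, npl-4.2, sel-1 and cdc-48.1, by distance from the most upstream 5' end in kb. Triangles mark replicate summits, black bars the genes and the grey band the promoter window; the bands of npl-4.1 and npl-4.2 are almost empty (3.00% unique in each), whereas sel-1 is at 100% throughout with no summit.

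The unthresholded lists add little at the promoters. A region of any height had its summit in the promoter window of 5 of the 8 genes in replicate 1 (beside 43.1% of all genes), 4 in replicate 2 (40.0%) and 4 in the pool (39.4%). The genes added to the bound ones were ufd-1 in all 3 lists and sel-11 in replicate 1. In all, 12 optimal, 26 pooled, 35 replicate 1 and 24 replicate 2 regions lay in reach of the 8 genes.

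The 50 bp to each side of every member summit were scanned for fixed motif words, in both orientations, and no matches overlapped. The forkhead word TGTTTAC with its variant TGTTTGC, and the related TATTTAC with its variant TATTTGC, the kind of sequence that FoxA proteins bind, occurred in 1 of the 12 member peaks, beside 26.0% of all optimal peaks; within 100 bp they occurred in 4, beside 35.6%. That peak was the one at −4019 bp of ufd-1, with TGTTTGC 3 bp from the summit, shown in capitals above. GAGAGA, the word of GA repeats, occurred in 4 of 12 beside 23.3%: at −316, −1447 and +4999 bp of cdc-48.2 and at −317 bp of ufd-2. Within 25 bp GAGAGA was in 1 peak, that at −316 bp of cdc-48.2, beside 13.4%. TGATAA, the word of GATA factors, occurred in 3 of 12 beside 18.4%, and CACGTG, the E-box, in 1 of 12 beside 4.51%. TTCNNGAA, part of the heat shock element, was found in none beside 2.92%, and TGACGTG, a word of the unfolded protein response, in none beside 1.73%. Within 100 bp TTCNNGAA was in 2 of 12 member peaks beside 8.28%, at +85 bp from the summit of the cdc-48.1 promoter peak and at +53 bp from that of cdc-48.2 at −826 bp. The window of cdc-48.1 with the list's highest peak held none of these words within 50 bp; its A and T content was 57.4%, beside a median of 59.4% over the optimal peaks. The absence of a word says only that these letters are not in the window.

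A longer word is common to the promoter peaks of cdc-48.2 and ufd-2. CAAACGCGCTCC, of 12 bases, is the longest run shared by their windows at −826 and −317 bp, and it was found by reading those windows, so no test was made on it. In cdc-48.2 it covers the summit, and in ufd-2 it begins 5 bp from the summit. The same word, on the other strand, lies across the summit of the weak region at −248 bp of ufd-1. The nearest form in the −316 bp peak of cdc-48.2 is CAAATGCGCCCC, with 2 mismatches. That in cdc-48.1 is CAACCGCGCCCT, with 3 mismatches, −31 to −20 bp from the summit. The other 8 optimal member peaks, none in a member's promoter window, had 4 to 7 mismatches at best.

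Across the optimal list the exact word was rare. It occurred within 50 bp of the summit in 48 of 7847 peaks (0.612%) and in 3 of 15694 windows placed 500 bp to either side (0.0191%). Of the 48 peaks, 47 were among the 4311 promoter peaks (1.09%), with a median height of 105 beside 92.2 over all promoter peaks. The exact word was in 0.8% of the 250 highest peaks, beside 0.612% of all optimal peaks. With up to 2 mismatches the word occurred in 4.33% of optimal peaks, 0.599% of the displaced windows and 13.6% of the 250 highest peaks. With up to 3 mismatches, as in cdc-48.1, the shares were 10.8%, 3.26% and 22.4%. Among the 4311 promoter peaks, 645 held a form with up to 3 mismatches. Thus 3 of the 4 member promoter peaks held a form with up to 2 mismatches beside 6.98% of all promoter peaks, in windows that chose the word.

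The wider machinery was described from gene lists written for it with earlier results in view, and their counts carry no test. Of 14 further genes listed as CDC-48 cofactors 6 (42.9%) were bound, beside 24.0% of all genes. The count was 4 in the 500 bp window (beside 19.5% of all genes) and with the nearest 5' end only (23.2%). It was 7 in the 2000 bp window (29.4%), with whole regions (25.2%) and from the highest regions of replicate 1 (24.6%). The list also counts cdc-48.3, the more distant gene compared with cdc-48.1 above, which was unbound. The highest were ufd-3, a homologue of a ubiquitin-binding adaptor of CDC-48, at a height of 275 (relative signal 3.13 ± 0.43, SD, n = 2), and ubql-1, which encodes ubiquilin, at 242 (3.04 ± 0.87). They were followed by rad-23, a shuttle that carries ubiquitylated proteins to the proteasome, at 199 (2.30 ± 0.15), and the UBX-domain gene ubxn-2 at 164 (1.93 ± 0.19). The peak of ubql-1 also serves the disulphide isomerase gene pdi-3, and that of rad-23 lies nearer to the proteasome gene rpn-12 (at −160 bp). The bound cofactors had a median height of 181, beside 156 for the 3 bound members and 104 for all bound genes.

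Of the further ERAD genes of the membrane and lumen that matched an annotated symbol, 6 of 11 (54.5%) were bound, beside 24.0% of all genes, with a median height of 136. The ubiquitin-conjugating enzyme gene ubc-7 had the highest peak at 250 (relative signal 2.85 ± 0.38), followed by the glycoprotein-folding sensor gene uggt-1 at 217 (2.72 ± 0.69). The conjugating enzyme gene ubc-6 stood at 150 (1.87 ± 0.39) and the Derlin gene cup-2 at 122 (1.40 ± 0.13). In both of these the summit is nearer to another gene, aka-1 at −277 bp and tag-353 at −276 bp. The unbound genes were der-2, hrdl-1, rnf-5, ubc-14 and tram-1. With peaks given only to the nearest 5' end, the count fell to 3, beside 23.2% of all genes.

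Among genes of folding and of the unfolded protein response in the endoplasmic reticulum, 20 of 23 (87.0%) were bound, beside 24.0% of all genes, with a median height of 161 beside 104 for all bound genes. The highest were the translocon genes sec-61.G at 433 (rank 40, relative signal 5.21 ± 0.80) and sec-61.B at 259 (3.23 ± 0.98), the latter with a summit nearer to trap-3 (at −313 bp). The response's transcription factor gene xbp-1 had a peak of 249 (2.93 ± 0.32) at −55 bp, and hsp-3, a chaperone of the BiP family, a peak of 246 (3.10 ± 1.04) at −47 bp. Unbound were hsp-4, the other BiP gene, with dnj-7 and ero-1. That every peak in the other lists was lower than that of cdc-48.1 follows from its rank of 1 in the optimal list.

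**Figure D5:**
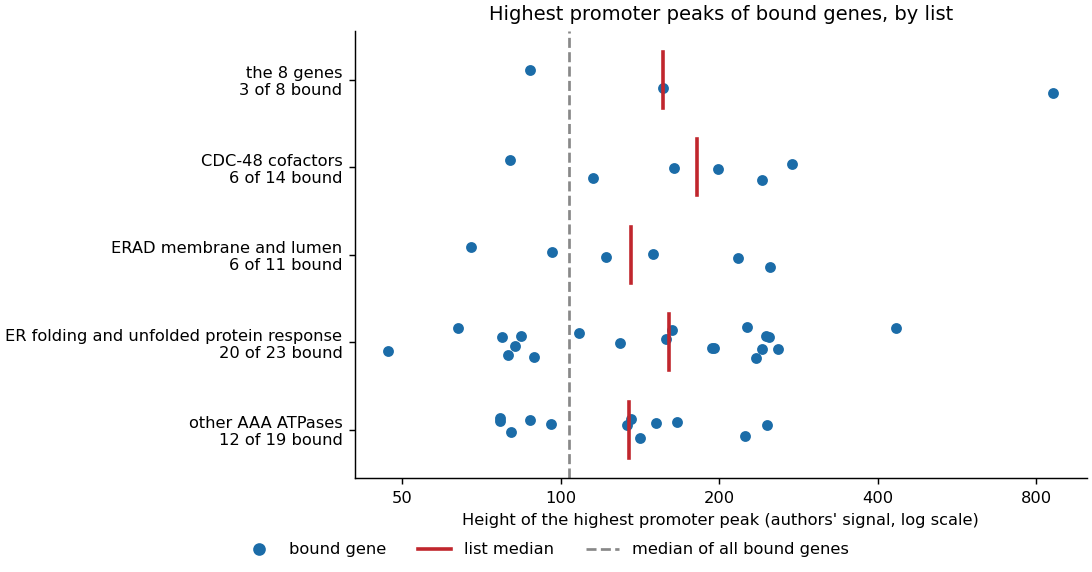
Height (the authors' signal, log scale) of the highest promoter peak of each bound gene, by list; red bars are list medians and the dashed line is the median of all bound genes (104). In the row of the 8 genes, cdc-48.1 at 862 lies beyond every other point, ufd-2 at 156 is the list's median and cdc-48.2 at 87.4 lies to the left of the dashed line.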

How the data were processed

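PHA-4 ChIP-seq peak lists of whole L3 larvae, 2 biological replicates, were used on build ce11; lists on ce10 were not used. Per the deposited manifests, each replicate's 30000 regions came from its alignment and a control file shared by both, the pooled list from both alignments, and the 7847 optimal peaks from these lists by the irreproducible discovery rate. The deposited signal is the authors' height of a region, on a scale that is not stated. A q-value per region, deposited as −log10, was read but supports no result. The sources used here do not give the extraction, aligner, peak caller, threshold or depth. Regions had been called on each replicate and on the pool, per the manifests. The labels name both pha-4 (antibody) and eGFP-pha-4 (description), so the epitope is unsettled.

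Genes came from Ensembl release 115 and sequence from the RefSeq genome of WBcel235. A replicate region matched an optimal peak if its summit lay within 200 bp; 71 optimal peaks (0.905%) had none in replicate 1 and 82 (1.04%) none in replicate 2, and all 12 member peaks had both. Relative signal is given as mean ± SD of 2 replicates, which may differ for technical reasons. Words of 36 bases (50 as an alternative) were counted on both strands. Proteins were translated from annotated coding sequences and aligned with Biopython 1.88; identities are shares of the longer sequence. Placement, motif search and word counting were tested on simulated data.

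Members, lists and motifs were chosen with earlier results of these data known. Named genes were the 8 members, genes sharing their summits, the 5 most like cdc-48.1 and up to 4 bound genes per list; other neighbours and unbound genes were named after their values were seen. Symbols edem-1, edem-2, edem-3, fign-1 and clpx-1 matched no annotated gene. Alternatives were other windows, assignments, annotations, lists, scalings, motif windows and word lengths. Analyses used Python 3.11.15, NumPy 2.4.6, pandas 2.3.3 and Matplotlib 3.10.9.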

Additional observations from a re-analysis of the deposited data

How the results depend on the processing

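The 3 bound members were cdc-48.1, cdc-48.2 and ufd-2 under each alternative of window, region overlap and nearest 5' end. They were the same with peaks above the median height, either replicate's own highest regions and RefSeq 5' ends. The share of all genes bound ran from 15.1% to 29.4%. The pooled list repeats the heights and ranks of the optimal member peaks, so it is no separate check. For cdc-48.2 the 500 bp window and the nearest 5' end rest on its −316 bp peak (42.8, rank 7660 of 7847). Above the median height it rests on the −826 bp peak (87.4, beside a lowest kept height of 84.7). With the nearest 5' end only (23.2% of all genes), 3 of the further ERAD genes were bound instead of 6, and 4 of the further cofactors instead of 6. In each of these lists the 500 bp window gave 4 (19.5% of all genes) and the 2000 bp window 7 (29.4%). Scaled to the median of the full replicate lists, relative signal was 40.2 for cdc-48.1, 4.08 for cdc-48.2 and 7.56 for ufd-2; scaled to the 500 highest optimal peaks it was 2.92, 0.30 and 0.54, since the divisor differs by construction. From 1 replicate alone it was 9.0 to 10.6 for cdc-48.1, 0.95 to 1.04 for cdc-48.2 and 1.76 to 1.89 for ufd-2. Forkhead words occurred in 4 member peaks within 100 bp (35.6% of all peaks) and GAGAGA in 1 within 25 bp (13.4% of all peaks), because the window changes. With words of 50 bases the unique share was 4.16% for npl-4.1 and npl-4.2. The form of CAAACGCGCTCC with up to 2 mismatches, an alternative chosen after seeing the data, occurred in 3 of 4 promoter peaks at each window. This is no check, since the word was read from 2 of these peaks and all 3 forms lie within 25 bp of the summit. No paired analysis was possible because there is 1 group and no test. Unknown depth and 2 replicates limit every height.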

Other observations

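Among other AAA ATPases, the enzyme family of CDC-48, 12 of the 19 listed genes with an annotated symbol (63.2%) were bound, beside 24.0% of all protein-coding genes, with a median height of 135 beside 104 for all bound genes. The highest peaks were at spas-1, the spastin homologue that severs microtubules, at 247 (relative signal 2.74 ± 0.31, SD, n = 2) and at ruvb-2, a RuvB-like helicase, at 224 (2.56 ± 0.11). The membrane-traffic ATPase genes vps-4 and nsf-1 stood at 166 (1.88 ± 0.07) and 152 (1.81 ± 0.03). The peak of nsf-1 also falls in the promoter window of adr-1, and those of atad-3, lex-1 and spg-7 are likewise shared. The summits of ppgn-1 and mei-1 lie nearer to tftc-1 and npp-2. With the nearest 5' end only, 11 of the 19 were bound, beside 23.2% of all genes. The 7 unbound genes were mac-1, bcs-1, prx-1, prx-6, tor-1, tor-2 and ruvb-1, so that of the RuvB-like pair only ruvb-2 had a promoter peak and the nearest optimal summit to ruvb-1 was 4242 bp away. These 12 peaks are lower than that of cdc-48.1 because it is rank 1 of the optimal list, and nothing is read from that.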
